A study of Homo sapiens with 9 samples.

Results

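DNA replication and cell cycle genes are followed here in ATAC-seq data of the neuroblastoma line SK-N-BE(2)c, which is of human origin. The 40 member genes were chosen by function: origin licensing, helicase activation, synthesis at the fork, nucleotide supply, cyclins and their kinases, E2F factors, mitotic kinases and chromosome structure. A counted region was assigned to a gene end when its centre lay within 1 kb of either end of the gene in GRCh38. This gave 42 gene-end regions for 39 of the 40 genes, out of 14098 such regions for 20037 protein-coding genes and 148797 regions in all. CDK6 had none. A further 174 regions lay within a member gene or within 20 kb of it and are treated apart. The nearest regions on either side of the 1 kb limit were those of BIRC5, 909 bases from a gene end, and CCND1, 964 bases, just inside, and those of RRM1, 1097 bases, and RFC4, 1142 bases, just outside. In the NCA libraries these 4 regions averaged 10.1, 2.47, 1.45 and 7.67 CPM (counts divided by the library total, on a common scale), in that order.

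ATAC-seq counts the insertions of Tn5 transposase into open DNA, so a region with more counts is read as more accessible. Cells of all 9 libraries were lipofected with an antisense oligonucleotide (ASO) at 100 nM and collected 48 h later. ASO2 and ASO10 are directed against NESPR, a long non-coding RNA of adrenergic neuroblastoma cells, while NCA served as the control oligonucleotide. There were 3 libraries in each group, and no untransfected cells were analysed here. The labels do not say whether libraries of a group came from separate cultures, so p-values measure the spread between these libraries, which may be technical. RNA was not measured, so neither the loss of NESPR nor the expression of any member was examined. These are bulk libraries of cycling cells, in which fewer cells with an open region and less opening per cell cannot be told apart.

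Before S phase, CDC6 and CDT1 load the MCM2 to MCM7 ring onto origins, a step called licensing. MCM10, CDC45 and the GINS complex then turn the ring into the active helicase. Cyclin D with CDK4 or CDK6, followed by cyclin E with CDK2, releases E2F factors, which switch on genes of licensing and DNA synthesis. Genes of G2 and mitosis are switched on later through CHR and CCAAT elements in their promoters. In neuroblastoma, amplified MYCN is known to drive many of these genes.

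Promoter sequences from RefSeq (GRCh38.p14) were found for 33 of the 40 genes. They are shown for 5 genes on which the results turn. TOP2A and CDK4 are the genes whose gene ends passed the threshold in a comparison. CDK1 came closest to the threshold under ASO2, and MCM6 and E2F1 carry E2F letters. Each line gives the 250 bases before the RefSeq start, 5′ to 3′ on the gene's strand, which lie at chr17:40417897-40418146 (minus), chr12:57752311-57752560 (minus), chr10:60778228-60778477 (plus), chr2:135876444-135876693 (minus) and chr20:33686386-33686635 (minus) in the order printed. Capitals mark the letters TTTCCCGC or TTTGGCGC (E2F), TTTGAA (CHR) and CCAAT, or their reverse complements.
TOP2A: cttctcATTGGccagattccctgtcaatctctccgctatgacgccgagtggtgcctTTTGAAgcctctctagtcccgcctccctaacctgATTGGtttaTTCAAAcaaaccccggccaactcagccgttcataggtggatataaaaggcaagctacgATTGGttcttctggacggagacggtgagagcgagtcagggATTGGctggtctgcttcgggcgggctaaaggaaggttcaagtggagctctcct
CDK4: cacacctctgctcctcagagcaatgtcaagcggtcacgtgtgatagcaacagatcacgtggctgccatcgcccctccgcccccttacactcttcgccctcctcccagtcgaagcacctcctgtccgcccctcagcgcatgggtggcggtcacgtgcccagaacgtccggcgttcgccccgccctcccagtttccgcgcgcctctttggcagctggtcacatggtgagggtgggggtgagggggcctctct
CDK1: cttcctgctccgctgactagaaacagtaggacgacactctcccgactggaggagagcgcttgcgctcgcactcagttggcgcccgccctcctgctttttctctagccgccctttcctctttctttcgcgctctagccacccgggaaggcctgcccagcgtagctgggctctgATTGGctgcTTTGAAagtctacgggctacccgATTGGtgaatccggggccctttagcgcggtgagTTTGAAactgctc
MCM6: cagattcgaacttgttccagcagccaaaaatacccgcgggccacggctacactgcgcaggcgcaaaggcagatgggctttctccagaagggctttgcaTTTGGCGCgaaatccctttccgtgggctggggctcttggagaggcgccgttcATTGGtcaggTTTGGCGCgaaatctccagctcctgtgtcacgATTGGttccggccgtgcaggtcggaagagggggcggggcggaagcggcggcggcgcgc
E2F1: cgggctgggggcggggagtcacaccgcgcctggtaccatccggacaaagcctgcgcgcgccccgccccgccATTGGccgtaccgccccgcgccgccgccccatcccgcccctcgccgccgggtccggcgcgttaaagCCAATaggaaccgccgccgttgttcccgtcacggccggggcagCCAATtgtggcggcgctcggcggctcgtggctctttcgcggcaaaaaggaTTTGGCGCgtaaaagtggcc
The TOP2A stretch holds 2 CHR and 4 CCAAT matches, that of CDK1 2 and 2. MCM6 holds 2 E2F and 2 CCAAT matches and E2F1 holds 1 and 3, while CDK4 holds none of the 3 motifs. All 5 stretches lie inside the gene-end region of their gene.

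The E2F letters were searched on both strands in windows of 300 bases, from 250 before to 50 after each start. They were found in 14 of 33 member promoters (42.4%) and in 2.27% of the 35116 promoters of the table. CCAAT was found in 24 of 33 (72.7%) against 34.6% of the table, and TTTGAA in 8 of 33 (24.2%) against 15.2%. None of the 3 motifs contains another on either strand, though neighbouring matches could share end bases. By role, E2F letters stood in 5 of 6 licensing promoters and in 3 of 3 promoters of E2F factors. They stood in 0 of 5 of the S to M cyclins and their kinase, a role that here also holds CDC20. Those 5 all had CCAAT, and 3 of them had TTTGAA. Member promoters were also richer in G and C, with a median of 64.7% against 58.7% in the table. A match describes these letters only, and no match says only that they are not in the window.

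The total count per library ranged from 7293565 to 10948569. A single region far from any member took 6.98% to 9.04% of it. Of 148797 regions, 119417 had enough counts to be tested, among them 41 of the 42 member gene ends. The exception was a region at the 3′ end of CCNE1, at 0.235 to 1.417 CPM. Regions were found at the ends of 7 of 8 adrenergic neuroblastoma marker genes, TH being without one, and their summed level was 144 to 175 CPM in all groups. For fibroblast, leukocyte and epithelial markers, 2 of 5, 2 of 5 and 3 of 5 genes had a region, with sums of 4.41 to 12.4 CPM. No marker region differed between groups in edgeR's quasi-likelihood test.

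Member gene ends had counts in every library, though as few as 2 at the untested CCNE1 region. Of the 42 regions, 32 covered a start site and 1, at CCNE1, lay 424 bases from a stop site. The other 9 belong to genes whose strand is not in the table, so the end they mark is not known. The annotation used gives gene spans without exons, so exon, intron and UTR positions were not assigned. Per kilobase of region, the highest NCA levels among the 41 tested gene ends were 46.0 CPM per kb at AURKA, a kinase of the spindle poles, 38.5 at the transcription factor E2F3 and 38.2 at PCNA, the sliding clamp of the polymerases. The lowest were 6.69 CPM per kb at AURKB, the kinase of the chromosomal passenger complex, 6.96 at CDT1 and 7.64 at E2F2. Levels of different genes were not corrected for DNA copy number, so this order is of counts only. Of the 42 regions, 10 also lie at an end of another protein-coding gene and cannot be given to the member alone. These are MCM2 (with TPRA1), MCM4 (PRKDC), MCM7 (AP4M1), CDC45 (UFD1), PCNA (CDS2), CCNE2 (NDUFAF6), CDK2 (PMEL), E2F3 (LOC124901482), CCNA2 (BBS7) and AURKA (CSTF1).

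**Figure D1:**
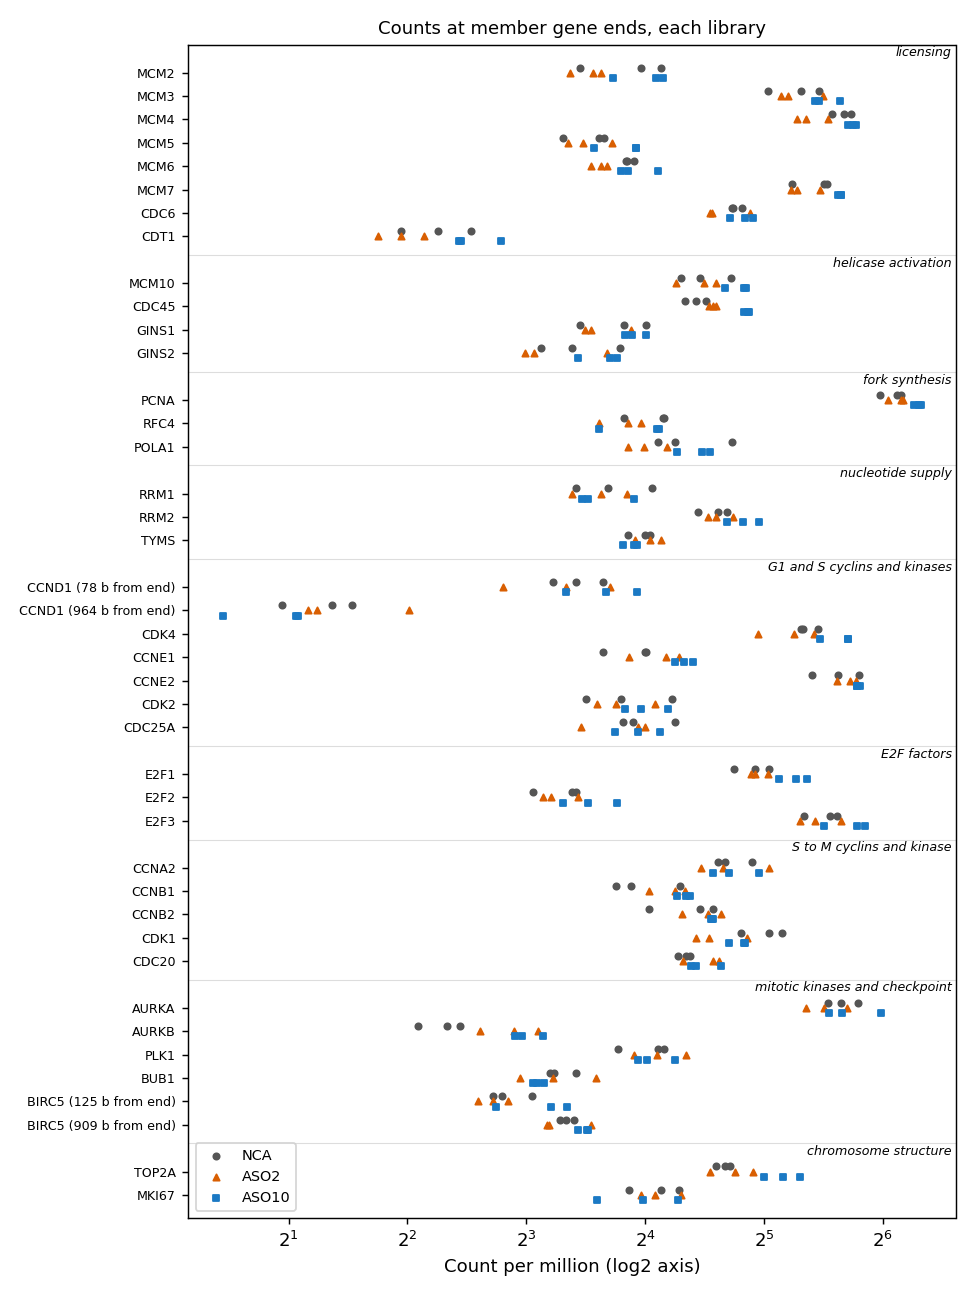
CPM (log2 axis) at the 41 tested member gene ends, grouped by role, with 1 point for each of the 3 NCA, 3 ASO2 and 3 ASO10 libraries. The ASO2 and NCA points overlap at all but 4 regions (CDC45, AURKB, MCM4 and MCM6), while the ASO10 points of TOP2A (32.1 to 39.5) lie to the right of the NCA points (24.2 to 26.2).

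The comparisons ask whether accessibility at these genes differed from the control under each oligonucleotide and between both. Few member gene ends were called. Under ASO10, TOP2A rose, and between the oligonucleotides CDK4 and TOP2A were lower under ASO2 than under ASO10. Against NCA, none of the 41 regions was called under ASO2, which does not show that they were unchanged. All tests here use the quasi-likelihood method of edgeR, with p-values adjusted after Benjamini and Hochberg over the 119417 tested regions, and a region is called when its adjusted p is under 0.05. Both comparisons with NCA share the NCA libraries, so their values are given side by side and are not 2 independent readings.

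Under ASO2, 0 of 41 member gene ends were called by edgeR, where 5.60% of all tested regions, 1.54% of gene ends of other genes and 1.83% of 4602 other gene ends of like abundance were. Like abundance means a mean log2 CPM between the quartiles of the members, 3.70 and 4.83. At an unadjusted p under 0.05 there were 5 (12.2%, against 11.5% at like gene ends and 16.5% of all regions). These were MCM2, MCM4, POLA1 and CDK1, lower, and AURKB, higher. DESeq2 called 0 and limma-voom called 1, CDK1. Under ASO10, 1 of 41 was called (TOP2A, higher), where the shares were 1.09% of all regions (0.876% higher), 2.14% of other gene ends and 2.02% of like gene ends. At an unadjusted p under 0.05 there were 9 of 41, all higher, where 19.0% of like gene ends passed in either direction and 16.4% upwards. For ASO2 against ASO10, 2 of 41 were called (CDK4 and TOP2A, lower), beside 3.23% of all regions (0.682% lower), 3.31% and 3.39%. At an unadjusted p under 0.05 there were 12, all lower (29.3%, against 22.9% of like gene ends in either direction and 21.1% downwards). Of all regions, 14.6% passed in either direction and 6.07% downwards. The average of both oligonucleotides against NCA gave 0 of 41 by edgeR, where 2.99% of all regions, 1.40% of other gene ends and 1.72% of like gene ends were called. There, 6 members had an unadjusted p under 0.05 (14.6%, against 12.3% of like gene ends and 14.0% of all regions). DESeq2 called 1 (AURKB) and limma-voom called 0. The shares of members called, from 0% to 4.88%, lay near those at gene ends of like abundance.

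The level of the members as a group followed that of other gene ends. The median log2 fold change of the 41 regions was −0.02 under ASO2 and 0.17 under ASO10. At like gene ends it was −0.04 and 0.10, and over all tested regions −0.02 and −0.01. For ASO2 against ASO10 the medians were −0.21, −0.15 and 0.00. Under ASO10, 33 of 41 member estimates were above 0, as were 68.2% of those at like gene ends. Matched to gene ends within 0.25 log2 CPM of its own level, the median member differed by 0.03 under ASO2, by 0.05 under ASO10 and by −0.04 between them. With loess offsets, which level out trends with abundance, the ASO10 median became 0.06 and 27 of 41 estimates were above 0, beside 0.01 at like gene ends.

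The shift was also read in each library. Relative to the mean of the NCA libraries, the median member gene end lay at 0.02, −0.05 and 0.07 log2 CPM in NCA libraries 1 to 3 and at −0.09, 0.05 and −0.09 in those of ASO2. In the ASO10 libraries it lay at 0.18, 0.11 and 0.22, above every NCA library. The like gene ends were also highest in the ASO10 libraries 1, 2 and 3, at 0.15, 0.06 and 0.11, where ASO2 library 2 had 0.06 and NCA library 3 had 0.03.

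**Figure D2:**
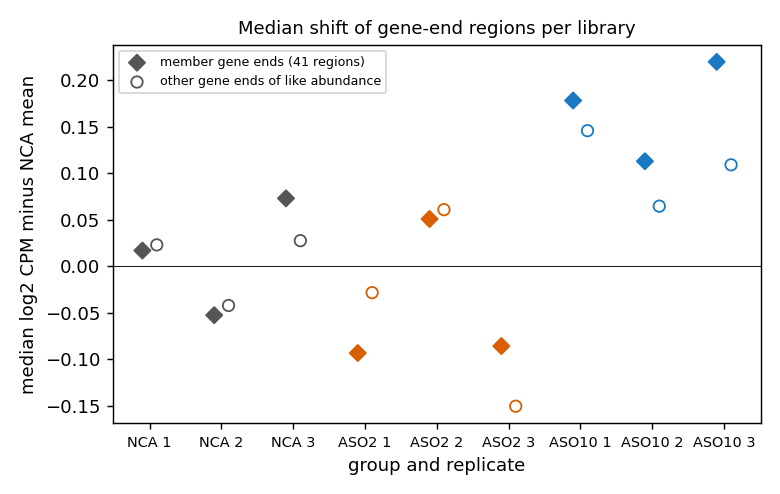
Median log2 CPM of the 41 member gene ends (filled) and of 4602 other gene ends of like abundance (open) in each library, relative to the mean of the NCA libraries. Both symbols are highest in the 3 ASO10 libraries, at 0.11 to 0.22 for members and 0.06 to 0.15 for the other gene ends, and the ASO2 libraries spread on both sides of 0.

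**Figure D3:**
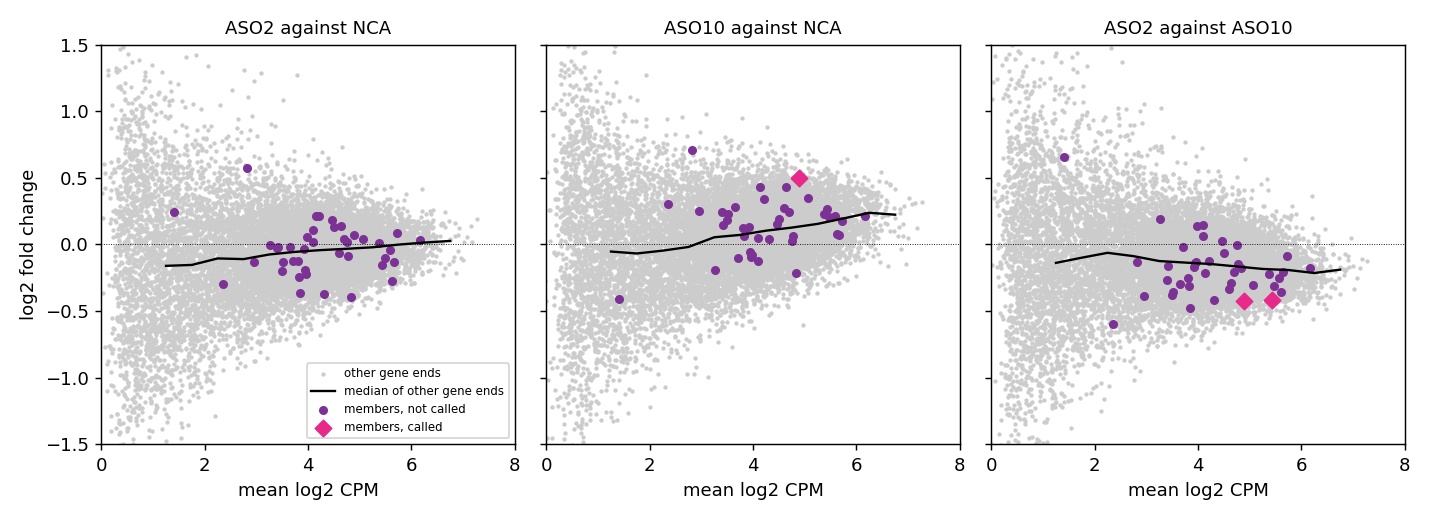
Log2 fold change against mean log2 CPM for gene ends of other genes (grey), their running median (line), members not called (purple) and members called (pink diamonds), in the 3 comparisons. The line climbs with abundance under ASO10, and the members scatter around it.

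Groups that did not overlap, 3 libraries against 3, were counted as a description. All ASO10 libraries lay above all NCA libraries at 11 of 41 member gene ends (26.8%), against 20.8% of like gene ends and 8.51% of all regions. The 11 were MCM7, CDC45, PCNA, RRM2, CDK4, CCNE1, E2F1, CDC20, AURKB, TOP2A and the BIRC5 region 909 bases from a gene end. Some gaps were very small. The highest NCA and lowest ASO10 values were 25.77 and 25.78 CPM at RRM2, and 20.74 and 20.88 CPM at CDC20. BUB1 was the 1 region with all ASO10 libraries below NCA, against 4.11% of like gene ends and 7.15% of all regions. ASO2 lay above NCA at 2, CDC45 and AURKB (4.88%, against 4.52% of like gene ends and 11.9% of all regions). It lay below NCA at 2, MCM4 and MCM6 (against 9.52% and 8.57%). ASO2 lay wholly below ASO10 at 13 regions (31.7%, against 22.8%) and above it at 1, the CCND1 region 964 bases from a gene end (against 2.35%).

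Among the licensing genes, none of the 8 gene ends passed the test in any comparison. Their estimates under ASO10 were all above 0 (median 0.16, or 0.06 with 2 of 8 below 0 under loess offsets), and 7 of 8 under ASO2 were below 0 (median −0.18, or 8 of 8 with total counts). All 8 were lower under ASO2 than under ASO10, with a median of −0.31 that was −0.24 to −0.31 under the other scalings. Of 4602 like gene ends, 3139 were above 0 under ASO10 and 2736 below 0 under ASO2. There, 3581 were lower under ASO2 than under ASO10, with a median of −0.15. MCM4, a subunit of the helicase ring, had the most CPM of the licensing regions over a width of 2072 bases, while MCM3 was higher per length (33.8 against 24.5 CPM per kb). MCM4 had 51.1, 47.7 and 53.2 CPM in NCA. It had 40.8, 46.4 and 38.8 CPM under ASO2 and 53.8, 54.7 and 52.3 CPM under ASO10. The ASO2 libraries lay below the other 6 without overlap. The log2 fold change of ASO2 against ASO10 was −0.35 ± 0.12 (SE; adjusted p = 0.0611), and it was called by DESeq2, limma-voom, the fit with at least 10 counts in every library and the fit of only the groups compared.

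MCM2, another subunit of the ring, showed a wider spread in the control. It had 10.95, 15.6 and 17.6 CPM in NCA, 12.3, 10.3 and 11.8 under ASO2 and 13.3, 17.1 and 17.7 under ASO10. The lowest NCA library lay among those of ASO2, and ASO2 against ASO10 gave −0.48 ± 0.17 (adjusted p = 0.0980). MCM6, whose promoter is printed above, was tight in NCA and under ASO2 and spread more widely under ASO10. It had 14.4, 15.004 and 14.3 CPM in NCA, 12.8, 11.7 and 12.4 under ASO2, and 17.2, 14.5 and 13.9 under ASO10. All ASO2 values lay below the rest, at a log2 fold change of −0.25 ± 0.17 against NCA (adjusted p = 0.498). CDT1, the loading factor that geminin restrains after S phase starts, was weak, with 3.37 to 6.90 CPM over the 9 libraries. It gave the lowest gene-end estimate of ASO2 against ASO10, −0.60 ± 0.29, with an adjusted p of 0.305.

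The 4 genes of helicase activation were likewise uncalled. Their ASO10 estimates were all above 0 (median 0.23, and 0.16 under loess offsets), and all 4 were lower under ASO2 than under ASO10 (median −0.31). Of 4602 like gene ends, 3139 and 3581 went the same way in these comparisons. CDC45, which joins MCM and GINS in the active helicase, had 21.5, 20.2 and 22.8 CPM in NCA. It had 23.7, 23.2 and 24.2 CPM under ASO2 and 29.2, 29.2 and 28.5 CPM under ASO10. The 3 groups were in the order NCA, ASO2, ASO10 with no overlap. The ASO10 difference was 0.43 ± 0.14 (adjusted p = 0.104), and DESeq2 called it. The ASO2 difference was 0.14 ± 0.14 (adjusted p = 0.680). This region also covers the start of UFD1, a cofactor of protein degradation.

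At the replication fork and in nucleotide supply no region passed the test. PCNA had 69.3, 62.9 and 71.3 CPM in NCA, 71.1, 71.9 and 65.9 under ASO2 and 79.8, 76.9 and 78.9 under ASO10. The ASO10 values lay above all others, by 0.21 ± 0.11 against NCA (adjusted p = 0.466), and gene ends of its abundance moved as far, since the excess over their median was −0.02. POLA1, the catalytic subunit of the primase-polymerase, had 19.1, 17.3 and 26.6 CPM in NCA. It had 15.9, 14.5 and 18.2 CPM under ASO2 and 23.3, 22.3 and 19.3 CPM under ASO10. Its ASO2 difference of −0.37 ± 0.15 (adjusted p = 0.139) included the highest value, that of NCA library 3. RRM2, the regulated subunit of ribonucleotide reductase, had 25.8, 24.5 and 21.8 CPM in NCA, 24.1, 26.7 and 23.03 under ASO2 and 31.1, 28.3 and 25.8 under ASO10, with adjusted p values of 0.931 and 0.534. TYMS, which makes thymidylate, kept between 14.1 and 17.5 CPM in all 9 libraries.

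Of the 7 tested gene ends of G1 and S cyclins and kinases, with CDC25A counted among them, CDK4 alone was called. CDK4, the cyclin D partner that starts phosphorylation of RB, had 43.8, 39.7 and 40.3 CPM in NCA at chr12:57751613-57752892. It had 38.2, 42.7 and 30.8 CPM under ASO2 and 52.1, 44.3 and 52.2 CPM under ASO10. All ASO10 libraries lay above the other 6, while ASO2 and NCA overlapped. ASO2 against ASO10 gave −0.41 ± 0.12 (adjusted p = 0.0226). Against NCA the differences were −0.15 ± 0.12 under ASO2 (adjusted p = 0.578) and 0.26 ± 0.12 under ASO10 (adjusted p = 0.376). The call was lost with loess offsets (−0.26, adjusted p = 0.177) and without ASO2 library 1 or 3 or ASO10 library 1 or 3, with adjusted p from 0.0825 to 0.277.

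CCNE1 encodes cyclin E1, the activator of CDK2 at the G1 to S transition. Its start region had 12.5, 16.01 and 16.1 CPM in NCA, 19.5, 18.0 and 14.6 under ASO2 and 19.0, 21.2 and 20.1 under ASO10. The ASO10 values lay above NCA without overlap, at 0.43 ± 0.16 (adjusted p = 0.192), and the ASO2 difference was 0.21 ± 0.16 (adjusted p = 0.545). CCNE2 had the most CPM of this role over a width of 2107 bases, while CDK4 was higher per length (32.2 against 23.3 CPM per kb). It ranged from 42.4 to 55.8 CPM in NCA, 49.0 to 54.7 under ASO2 and 54.9 to 56.1 under ASO10, with no call. The CCND1 region 964 bases from a gene end was the weakest tested gene end in CPM. It had 2.58, 2.90 and 1.93 CPM in NCA, 2.25, 2.36 and 4.04 under ASO2 and 2.11, 1.37 and 2.08 under ASO10. A single ASO2 library stood above the rest, and the estimate of ASO2 against NCA, 0.24 ± 0.44 (adjusted p = 0.847), was −0.10 without it.

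The 3 activating E2F factors had ASO10 estimates above 0 under every scaling (median 0.25, and 0.22 with total counts or loess offsets), none of them called. Of 4602 like gene ends, 3139 were above 0 under ASO10, and 2437 with loess offsets. E2F1, the factor most closely tied to S phase entry, had 30.3, 32.9 and 26.9 CPM in NCA, 32.7, 30.4 and 29.7 under ASO2 and 35.0, 38.6 and 41.02 under ASO10. The ASO10 libraries lay above the other 6, at 0.35 ± 0.13 against NCA (adjusted p = 0.192) and 0.20 above gene ends of its abundance. All ASO2 libraries lay within the NCA range, with an estimate of 0.04 ± 0.13 (adjusted p = 0.917). E2F3, the strongest of the 3, had 49.0, 40.5 and 47.0 CPM in NCA, 43.1, 50.01 and 39.5 under ASO2 and 55.0, 45.4 and 57.8 under ASO10, where the groups overlapped. Its ASO10 difference was 0.21 ± 0.12 (adjusted p = 0.521).

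The S to M cyclins and their kinase, with CDC20 counted among them, gave no call. CDK1, the kinase that drives entry into mitosis, had 27.96, 33.0 and 35.5 CPM in NCA at chr10:60778012-60779112. It had 23.2, 29.0 and 21.5 CPM under ASO2 and 26.0, 28.4 and 28.6 CPM under ASO10. ASO2 library 2 overlapped the lowest NCA library. The ASO2 difference of −0.39 ± 0.13 missed the threshold (adjusted p = 0.0520). It passed it under 6 other settings, limma-voom and loess offsets among them, with adjusted p from 0.0128 to 0.0497, and without NCA library 1 or ASO2 library 2 (0.0366 and 0.0136). The ASO10 difference was −0.22 ± 0.13 (adjusted p = 0.588), and ASO2 against ASO10 gave −0.18 ± 0.13 (adjusted p = 0.588). The partners of CDK1 had estimates of the other sign. CCNB1, cyclin B1, had 19.6, 14.8 and 13.5 CPM in NCA, 20.2, 19.0 and 16.3 under ASO2 and 20.8, 19.2 and 20.3 under ASO10, overlapping in both cases. Its differences were 0.21 ± 0.16 and 0.34 ± 0.15 (adjusted p = 0.533 and 0.390).

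Among the mitotic kinases and checkpoint genes, AURKB stood farthest from NCA without being called. Its start region had 4.25, 5.04 and 5.45 CPM in NCA, 8.56, 6.12 and 7.43 under ASO2 and 8.80, 7.51 and 7.81 under ASO10. All 6 ASO libraries lay above all NCA libraries. The differences were 0.57 ± 0.25 under ASO2 (adjusted p = 0.189) and 0.71 ± 0.25 under ASO10 (adjusted p = 0.163), the highest gene-end estimates in either comparison. For both oligonucleotides together the difference was 0.64 ± 0.22 (adjusted p = 0.0879), which DESeq2 called (0.0486). The region is weak, and its counts per library are correspondingly few. AURKA, with the highest level of the role, ranged from 46.5 to 55.4 CPM in NCA, 40.98 to 52.0 under ASO2 and 46.7 to 63.3 under ASO10, all overlapping. BUB1, a kinase of the spindle checkpoint, had 9.40, 9.20 and 10.7 CPM in NCA and 8.33, 8.53 and 8.86 under ASO10. That difference was −0.19 ± 0.21 (adjusted p = 0.810).

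TOP2A encodes topoisomerase II alpha, which untangles replicated chromosomes. Its start region at chr17:40417319-40418524 had 24.2, 26.2 and 25.5 CPM in NCA, 26.9, 29.9 and 23.3 under ASO2 and 39.5, 32.1 and 35.8 under ASO10. The ASO10 libraries lay above the other 6, and ASO2 overlapped NCA. TOP2A rose by 0.50 ± 0.13 on the log2 scale under ASO10 (adjusted p = 0.0218), where gene ends of its abundance had a median 0.36 lower. Under ASO2 the difference was 0.07 ± 0.13 (adjusted p = 0.845), and ASO2 was lower than ASO10 by −0.42 ± 0.13 (adjusted p = 0.0376). With loess offsets neither call held, at 0.38 (adjusted p = 0.0898) and −0.31 (adjusted p = 0.128). The ASO10 call was also lost without any 1 NCA library or without ASO10 library 1 or 3, with adjusted p from 0.0696 to 0.271. The call against ASO10 was lost without ASO2 or ASO10 library 1 or 3, with no filter (adjusted p = 0.0644) and with the replicate block (0.0597). MKI67, the classic marker of cycling cells, had 14.6, 17.5 and 19.5 CPM in NCA, 15.6, 19.7 and 17.0 under ASO2 and 19.4, 15.8 and 12.1 under ASO10, with no separation of groups.

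**Figure D4:**
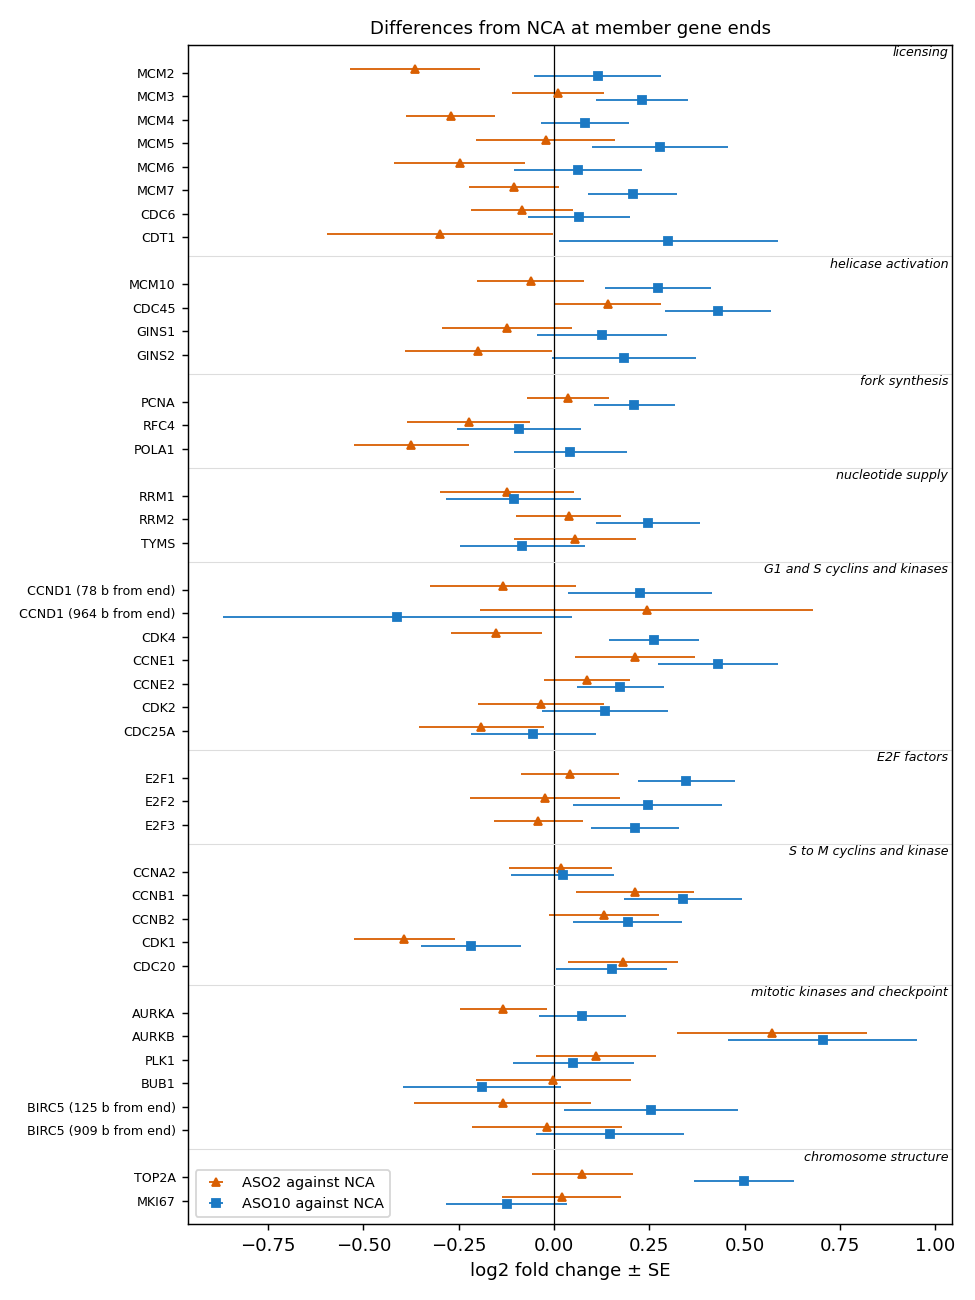
Log2 fold change ± SE against NCA at the 41 tested member gene ends, for ASO2 (triangles) and ASO10 (squares), fitted on 3 libraries per group. Both estimates share the NCA libraries. Most lie within 0.4 of 0, and TOP2A under ASO10 (0.50) is the one called.

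Away from the gene ends, 153 of the 174 regions were tested. Of the 174, 66 lay inside the member gene and 25 at an end of another protein-coding gene. Under ASO2, 4 of 153 were called (2.61%, against 5.60% of all regions), 2 higher and 2 lower, where 4.79% of all regions were higher and 0.808% lower. Under ASO10, 1 was called (0.654%, against 1.09%), and between ASO2 and ASO10 1 (0.654%, against 3.23%). For both oligonucleotides together 2 were called (1.31%, against 2.99%). These shares were below those of all regions in each comparison, although 2 of 153 lower under ASO2 (1.31%) was above the share of all regions in that direction.

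The call that persisted in every other fit and with each library left out (adjusted p at most 0.0442) lies 15.72 kb from an end of MCM4, inside the antisense gene UBE2V2-AS1 and 3.55 kb from an end of UBE2V2. At chr8:47993637-47994133, NCA had 2.96, 2.90 and 6.58 CPM, ASO2 had 8.14, 9.01 and 9.63, and ASO10 had 3.40, 5.80 and 6.51. The ASO2 libraries lay above the other 6. The region rose by 1.09 ± 0.26 under ASO2 (adjusted p = 0.00112), while ASO10 gave 0.31 ± 0.27 (adjusted p = 0.742). ASO2 against ASO10 gave 0.78 ± 0.25 (adjusted p = 0.0548), not called by edgeR. That difference was called by limma-voom, with total counts, with at least 10 counts in every library and with only the groups compared (adjusted p from 0.0289 to 0.0450), and without NCA library 2 (0.0473). At the MCM4 gene end itself, ASO2 had lower values than NCA, as given above. That difference, −0.27 ± 0.12 (adjusted p = 0.177), was not called by edgeR.

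CDK6, the other cyclin D kinase, has a long gene with 24 tested regions and no gene-end region by the 1 kb rule. Its region nearest to a gene end lies 3.13 kb away and 516 bases from a start in the promoter table. It had 33.8, 43.0 and 41.2 CPM in NCA, 40.8, 45.4 and 36.7 under ASO2 and 44.6, 41.9 and 44.5 under ASO10, with no call. Deep in the gene, 74.45 kb from its nearer end, a weak region at chr7:92761813-92762431 rose under ASO2. It had 1.03, 2.27 and 2.72 CPM in NCA, 3.09, 5.58 and 5.78 under ASO2 and 1.76, 2.73 and 2.995 under ASO10, and the ASO2 libraries lay above the other 6. The ASO2 difference was 1.26 ± 0.38 (adjusted p = 0.0229), lost without NCA library 1 or 2 or ASO2 library 2 or 3 (adjusted p 0.0513 to 0.224). It was also not among the calls of the fit with at least 10 counts in every library. A stronger region 67.47 kb from the end, at chr7:92768456-92769747, had 53.1, 44.1 and 46.7 CPM in NCA, 34.4, 45.4 and 39.5 under ASO2 and 54.3, 53.5 and 50.3 under ASO10. There ASO2 was lower than ASO10 by −0.40 ± 0.12 (adjusted p = 0.0248), lost with loess offsets (−0.23, adjusted p = 0.234) and without ASO2 library 1 or 3 or any 1 ASO10 library. The 2 regions of the same gene thus differed in sign for ASO2 against ASO10, at 0.96 ± 0.37 (adjusted p = 0.148) and −0.40.

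The remaining calls lay in neighbouring genes. A region 1.18 kb from an end of CDK2 sits on an end of RAB5B, which encodes an endosomal GTPase, at chr12:55973469-55974472. It had 71.1, 71.1 and 73.6 CPM in NCA, 91.2, 84.2 and 78.4 under ASO2 and 90.9, 93.9 and 96.9 under ASO10, so all 6 ASO libraries lay above NCA. It rose by 0.38 ± 0.10 under ASO10 (adjusted p = 0.0292) and by 0.31 for both together (adjusted p = 0.0312). Loess offsets ended both calls (adjusted p = 0.322 and 0.0527), as did the replicate block (0.0717 and 0.0668) and leaving out any 1 NCA or ASO10 library. With loess offsets the region was called under ASO2 (0.28, adjusted p = 0.0375). The call for both together was also lost without ASO2 library 1. A region 12.85 kb from CDK4, inside CYP27B1, the vitamin D 1-alpha-hydroxylase gene, had 10.3, 10.97 and 9.53 CPM in NCA at chr12:57764716-57765613. It had 5.47, 5.04 and 8.35 CPM under ASO2 and 7.04, 7.85 and 6.25 under ASO10, all below NCA. It changed by −0.69 ± 0.22 under ASO2 (adjusted p = 0.0398) and by −0.61 for both together (adjusted p = 0.0437). Leaving out any 1 NCA library or ASO2 library 1 or 2 lost both calls, as did fitting with no filter (adjusted p = 0.0533 and 0.0609). The call for both together was also lost with limma-voom (0.0524) and without ASO10 library 1 or 3. A region 6.62 kb from CDC6, inside the retinoic acid receptor gene RARA, had 7.86, 8.07 and 5.67 CPM in NCA, 5.33, 3.65 and 3.39 under ASO2 and 6.33, 3.30 and 6.12 under ASO10. It changed by −0.82 ± 0.27 under ASO2 (adjusted p = 0.0478), a call lost with DESeq2 (adjusted p = 0.0624), no filter (0.0636) and the replicate block (0.0511), and without NCA library 1 or 2, ASO2 library 2 or 3 or ASO10 library 1 or 3 (adjusted p from 0.0539 to 0.224).

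**Figure D5:**
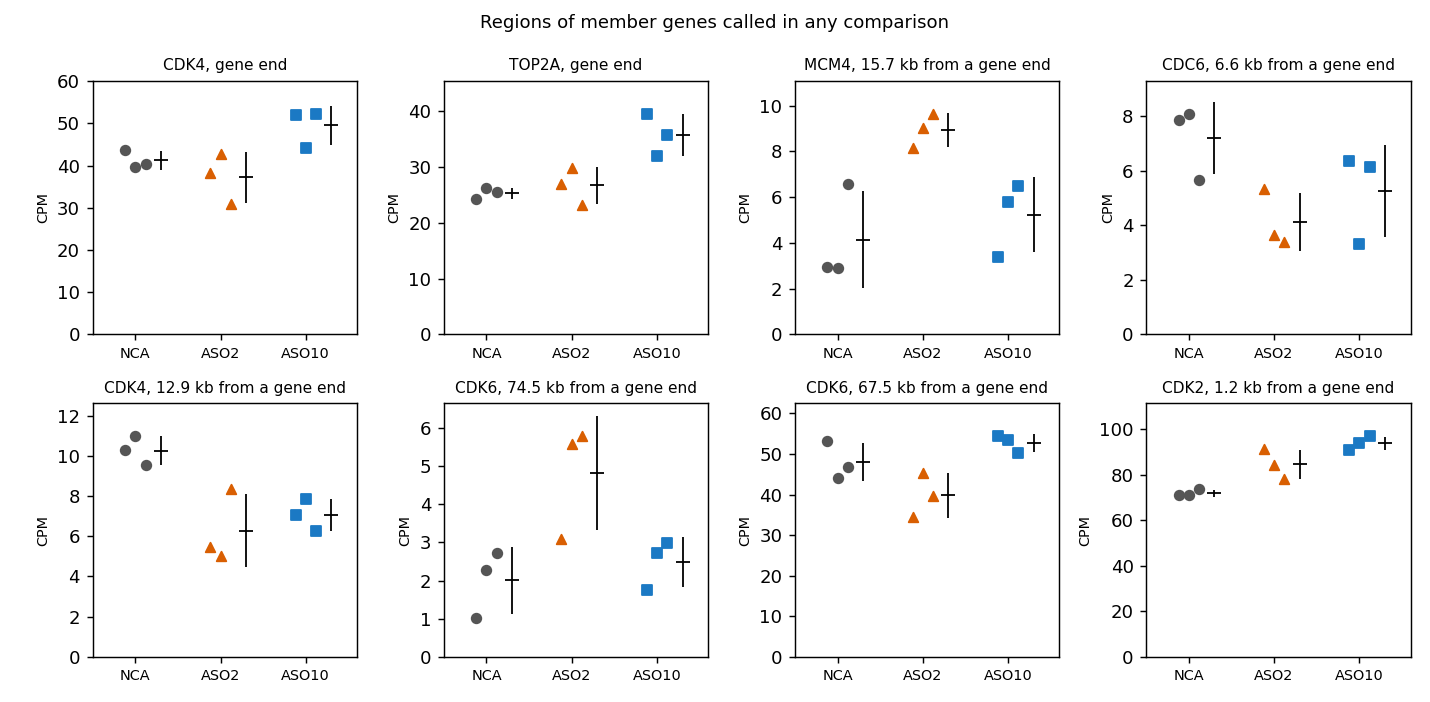
CPM in each library for the 8 member regions called in any comparison, with the mean ± SD (n = 3) to the right of each group. The axes start at 0. The region 15.7 kb from MCM4 shows 8.14 to 9.63 CPM under ASO2 above the other 6 libraries, and TOP2A shows 32.1 to 39.5 under ASO10.

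Other genes of the pathway were read from a list of 79 genes of replication, G1 control and mitosis, of which 75 had a gene-end region and 76 regions were tested. Under ASO2, 2 of 76 were higher and 0 lower, where 4.79% of all regions and 0.608% of the gene ends of like abundance to the members were higher. These were RPA3, a subunit of the single-strand binding protein (0.79, adjusted p = 0.0244), and UBE2C, the ubiquitin-conjugating enzyme of the anaphase-promoting complex (0.42, adjusted p = 0.0128). Under ASO10, 7 of 76 were higher and 0 lower: RPA1, LIG1, TK1, CHAF1A, CDKN2D, CENPA and UBE2C, at 0.48 to 0.84. The shares called higher there were 0.876% of all regions and 1.93% of those gene ends. At least the regions of RPA1, LIG1 and TK1 also lie at an end of SMYD4, ZSWIM9 and AFMID, in that order. Such regions cannot be given to the listed gene alone. For ASO2 against ASO10, 4 were lower, LIG1, CDKN2D, LIN54 and CENPA, beside 0.682% and 3.13%. The median log2 fold changes over the list were 0.01, 0.13 and −0.17, beside −0.04, 0.10 and −0.15 at like gene ends.

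CHAF1A, the large subunit of the chromatin assembly factor that follows the fork, had 16.6, 18.0 and 17.0 CPM in NCA. It had 18.7, 23.6 and 20.7 CPM under ASO2 and 27.6, 23.3 and 28.8 CPM under ASO10. All ASO libraries lay above NCA, with differences of 0.29 ± 0.15 (adjusted p = 0.2997) and 0.62 ± 0.15 (adjusted p = 0.00610). UBE2C had 39.6, 30.6 and 35.9 CPM in NCA, 44.3, 54.9 and 42.4 under ASO2 and 49.5, 47.6 and 52.6 under ASO10, again without overlap with NCA. It was the 1 gene end of the list called under each oligonucleotide.

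Member gene ends were also split by the letters in their promoters, as a description, over the 32 regions with a promoter entry. With E2F letters (14 regions) the median log2 fold change was −0.09 under ASO2 and 0.19 under ASO10, and without them (18 regions) 0.03 and 0.17. For ASO2 against ASO10 the medians were −0.26 with and −0.13 without. With TTTGAA (8 regions) the medians were 0.05 under ASO2, 0.10 under ASO10 and −0.04 between them, and without it (24 regions) −0.04, 0.21 and −0.23. These differences were not tested. TOP2A, which has TTTGAA and CCAAT but no E2F letters in its window, and CDK4, which has none of the 3 motifs in its 250 bases, were the called gene ends.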

How the data were processed

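The deposited table holds whole-number counts per region for all 9 libraries on a single set of regions, with no normalization, as the values show. The submitters' processing notes name FastQC, Bowtie2 2.2.6, SAMtools, MACS2 2.1.2, DESeq2 1.42.0 and hg38/GRCh38 without giving their roles. Filters, the shift of Tn5 insertion sites and whether reads, pairs or cut sites were counted are not given in the sources used here, so a count may hold 1 fragment more than once. The labels list the molecule as RNA, but their protocol describes tagmented genomic DNA. Coordinates are those of the region names, 1-based, matched to RefSeq gene spans and starts of GRCh38.p14.

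Counts were filtered with filterByExpr, scaled by TMM and fitted with edgeR 4.0.16 (quasi-likelihood, robust, all 9 libraries, a group term) in R 4.3.3, with limma 3.58.1 and DESeq2 1.42.0 as alternatives. P-values were adjusted by Benjamini-Hochberg over all 119417 tested regions at 0.05. CPM divide counts by the TMM-scaled total of a library's tested regions, and log2 CPM add a prior count of 2. Summaries used pandas 2.3.3 in Python 3.11.15, and plots used matplotlib 3.10.9. The fit was tested on simulated counts with known changes. Total counts per library, 7293565 to 10948569, limit what weak regions can show.

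The members, lists and alternatives were chosen with earlier results of these data known. Named were member regions called in any comparison, the gene end with the most CPM in each role, and the 2 highest and 2 lowest member gene ends per comparison. Others are named where groups did not overlap or as partners, chosen after their values were seen. Replicate numbers did not pair the libraries: deviations of same-numbered libraries correlated at −0.04 to 0.01 across regions. Genome sequence beyond the promoter table was not used here.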

Additional observations from a re-analysis of the deposited data

Results flagged for a closer look

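At 3 member regions the direct contrast of ASO2 and ASO10 passed the threshold in edgeR's quasi-likelihood test. So did 3.23% of all tested regions and 3.39% of gene ends of like abundance. All ASO2 libraries lay below all ASO10 libraries at 22.8% of gene ends of like abundance and 8.31% of all regions. At the CDK4 gene end ASO2 was lower than ASO10 by −0.41 on the log2 scale (adjusted p = 0.0226), with all 3 ASO2 libraries below all 3 of ASO10. At the TOP2A gene end the difference was −0.42 (adjusted p = 0.0376), again with all 3 libraries below. At the CDK6 region at chr7:92768456-92769747 it was −0.40 (adjusted p = 0.0248), with all 3 below. All 3 calls were lost with loess offsets on abundance, at −0.26, −0.31 and −0.23. They were also lost with several single libraries left out, as given above.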

How the results depend on the processing

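For 37 results, 687 alternative values were computed, of which 534 kept their direction and call (for counts and medians, moved less than the limit set). Among single regions, 69 lost a call, 11 gained one and 2 reversed. The reversals were CCND1 (964 bases from a gene end) under ASO2, 0.24, which ran from −0.10 without ASO2 replicate 3 to 0.39 with another library left out, and POLA1 for both ASOs, −0.17, which ran from −0.29 to 0.048, the latter without NCA replicate 3. The cause of changes below was not tested.

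Member gene ends called under ASO2 (0) became 1 with at least 10 counts in every library, only the groups compared, loess offsets, limma-voom, total counts and RLE factors. Under ASO10 (1) they became 2 with DESeq2 and with a gene-end window of 2 kb, and 0 with loess offsets. For ASO2 against ASO10 (2) they became 0 with loess offsets, 1 with no filter and with the replicate block, and 3 with DESeq2, limma-voom, at least 10 counts and only the groups compared. For both ASOs (0) they became 1 with DESeq2, loess offsets, at least 10 counts and the 2 kb window. Other member regions called under ASO2 (4) became 2 with no filter and with a flank of 10 kb. Under ASO10 (1) they became 3 with DESeq2, and 2 with limma-voom, at least 10 counts and only the groups compared. They became 0 with the 2 kb window and with the replicate block, as loess offsets also gave for ASO2 against ASO10. With loess offsets the ASO10 call was at another region, chr7:92589669-92590728 of CDK6 (−0.40, adjusted p = 0.0478). For ASO2 against ASO10 (1) the other member regions called became 2 with limma-voom and total counts. They became 3 with at least 10 counts and only the groups compared. For both ASOs (2) they became 1 with limma-voom, loess offsets, no filter, the replicate block, the 10 kb flank and the 2 kb window, and 3 with at least 10 counts. The median log2 fold change under ASO10 (0.17) became 0.060 with loess offsets.

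Leaving out 1 library at a time gave 0 to 1 gene-end calls under ASO2 and under ASO10, 0 to 3 for ASO2 against ASO10 and 0 for both ASOs. Other regions gave 1 to 5, 0 to 2, 0 to 2 and 0 to 2. The medians ran from −0.10 to 0.03 under ASO2, 0.12 to 0.18 under ASO10, and −0.27 to −0.15 for ASO2 against ASO10. A fit of only the groups compared was not possible for both ASOs, and medians were not run with DESeq2 or limma-voom.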
